A study of Mus musculus with 39 samples.

Results

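The genes described here encode 10 acute phase proteins of the mouse liver: the serum amyloid A proteins Saa1, Saa2, Saa3 and Saa4, the orosomucoids Orm1 and Orm2, haptoglobin (Hp), lipocalin 2 (Lcn2), serum amyloid P (Apcs) and C-reactive protein (Crp). They were chosen by symbol, and all 10 were found among the 45706 genes listed in every count file. The study sequenced rRNA-depleted RNA in 39 mouse samples of 12 groups, to ask how the basic helix-loop-helix factor E47, a product of the gene Tcf3, alters the response of liver to glucocorticoids. Of these samples 30 were livers, and the other 9 were epididymal white fat and quadriceps muscle.

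All mice were C57BL/6 males of 10 to 16 weeks on a chow diet. E47KO mice carried the germline E47-/- genotype and wildtype mice E47+/+. For 3 weeks, 3 E47KO and 2 wildtype mice with livers in the series drank water with dexamethasone (Dex, a synthetic glucocorticoid, 10 µg/ml), and 4 E47KO and 4 wildtype mice drank water with corticosterone (Cort, the main glucocorticoid of mice, 100 µg/ml). These mice were killed after a glucose tolerance test, for which the study's methods give an overnight fast. White fat (2 E47KO, 2 wildtype) and muscle (3 E47KO, 2 wildtype) were from the Dex experiment. Untreated livers were from 6 E47KO and 5 wildtype mice. A further 6 mice were injected with Dex at 1 mg/kg and killed 1 h later. Of these, 3 carried Albcre/+;E47fl/fl, in which Cre under the albumin promoter acts in hepatocytes and other liver cells keep E47, and 3 were floxed controls without Cre, of which replicate 1 was E47fl/+ and replicates 2 and 3 were E47fl/fl. No mouse of these genotypes was injected with vehicle in the samples used here, and untreated livers came from another experiment than every treated group.

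Acute phase proteins are secreted by hepatocytes in amounts that change within hours of infection or injury. Interleukin-6 acting through STAT3, interleukin-1 acting through NF-kB, and C/EBP factors are the known drivers of their genes, and glucocorticoids acting through the glucocorticoid receptor are known to add to the effect of the cytokines on many of them. In the mouse the acute serum amyloid A proteins, serum amyloid P, haptoglobin, the orosomucoids and lipocalin 2 respond strongly, Saa4 is the constitutive member of its family, and C-reactive protein, a major acute phase protein in humans, responds little.

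The members lie on 5 chromosomes (mm10, GENCODE vM21). The 4 serum amyloid A genes sit together on chromosome 7, with Saa3 at chr7:46711998-46715700, Saa4 at chr7:46727998-46732603, Saa1 at chr7:46740497-46742980 and Saa2 at chr7:46751790-46754313. Orm1 (chr4:63344560-63348163) and Orm2 (chr4:63362449-63365878) are neighbors, and Apcs (chr1:172893961-172895041) and Crp (chr1:172698055-172833031) share chromosome 1. Hp lies at chr8:109575128-109579172 and Lcn2 at chr2:32384633-32388252. Of the 50-base stretches of each principal transcript, 14.8% in Saa1 and 9.12% in Saa2 also occurred in transcripts of other genes, most often of each other, and the shares were 20.4% in Orm1 and 22.7% in Orm2. Counts of these 4 genes are therefore uncertain where reads could not be told apart, and the Crp model overlaps the pseudogene Gm38051.

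RefSeq windows of 250 bases before to 50 after the start were found for 8 of the 10 members, and not for Hp and Orm1. The letters TTNNGNAA, a C/EBP-type motif, were found on either strand in 7 of these 8 windows, against 40.7% of 32851 promoters of the same length. The exception was Apcs, which was the single member with the STAT-type motif TTCNNNGAA (8.30% of all promoters). The E-box CANNTG, the kind of site E47 binds, was in 7 of 8 windows, all but Saa4 (72.3% of all promoters). The NF-kB-type motif GGNNNTTCC was in 1 of 8 windows, that of Saa3 (18.5% of all promoters), where it overlaps a C/EBP-type match, and the core of the glucocorticoid response element, ACANNNTGT, was in 1 of 8, that of Lcn2 (6.85%). These short forms of the last pair were taken after longer forms had been searched and found in none of the 8. Each motif was searched on both strands. A match is a description of the letters and no match says nothing of the factor elsewhere. The 250 bases before the start are printed for an acute serum amyloid gene (Saa1), the constitutive one (Saa4), an orosomucoid (Orm2) and Crp, whose levels moved differently below, with the C/EBP-type motif in capitals. They read 5′ to 3′ on the gene's strand (RefSeq, GRCm38.p6), at chr7:46742981-46743230 on the minus strand for Saa1, chr7:46732604-46732853 on the minus strand for Saa4, chr4:63362199-63362448 on the plus strand for Orm2 and chr1:172697806-172698055 on the plus strand for Crp.
Saa1: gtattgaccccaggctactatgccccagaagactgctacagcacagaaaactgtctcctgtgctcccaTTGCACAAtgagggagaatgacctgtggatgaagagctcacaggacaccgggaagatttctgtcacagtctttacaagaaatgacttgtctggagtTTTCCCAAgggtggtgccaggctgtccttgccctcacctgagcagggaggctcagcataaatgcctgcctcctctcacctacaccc
Saa4: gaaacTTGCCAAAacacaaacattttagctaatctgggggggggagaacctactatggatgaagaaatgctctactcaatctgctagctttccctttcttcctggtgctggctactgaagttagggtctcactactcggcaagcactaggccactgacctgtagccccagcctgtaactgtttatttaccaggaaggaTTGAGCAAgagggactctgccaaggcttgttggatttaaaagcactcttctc
Orm2: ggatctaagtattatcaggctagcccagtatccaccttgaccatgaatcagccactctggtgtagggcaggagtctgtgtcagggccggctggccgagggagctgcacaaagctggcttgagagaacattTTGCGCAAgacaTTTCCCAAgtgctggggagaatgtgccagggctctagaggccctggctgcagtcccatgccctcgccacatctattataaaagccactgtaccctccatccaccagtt
Crp: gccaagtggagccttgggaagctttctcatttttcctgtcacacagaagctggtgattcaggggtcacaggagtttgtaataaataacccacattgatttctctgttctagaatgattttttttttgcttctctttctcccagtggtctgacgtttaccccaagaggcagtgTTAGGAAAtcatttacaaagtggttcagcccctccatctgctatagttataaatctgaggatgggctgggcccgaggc
Saa1 held 2 such sites, starting 182 and 86 bases before the start, and Saa2 held 1, at 183 bases. In Orm2 the sites were at 120 and 108 bases, and the second shares letters with an E-box at 103 bases. Saa4 held sites at 245 and 52 bases, and Crp held 1 at 78 bases.

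The libraries held 15513941 to 54560884 counts in genes per liver, 34468535 to 42958674 per white fat sample and 40375225 to 45967218 per muscle sample. Levels below are CPM, a count normalised to the size of its library after TMM scaling, on 1 scale over the 30 livers unless white fat or muscle is named, and fold changes are differences of log2 levels from edgeR's quasi-likelihood fit with their standard errors (SE). A gene is said to have passed the test at a Benjamini-Hochberg adjusted p under 0.05 over all genes tested. The Tcf3 count does not check the labels, since it covers the whole gene with its other product E12. It was 6.12 to 7.27 CPM in the floxed controls and 6.76 to 6.95 in the Albcre livers, and 10.97 to 17.2 in untreated wildtype against 10.8 to 13.04 in untreated E47KO livers. The summed level of 5 B cell markers, cells that need E47, was 1.93 to 4.03 CPM in untreated wildtype and 0.264 to 0.826 in untreated E47KO livers. After 3 weeks of Dex the genotypes overlapped, at 0.0598 to 0.244 in wildtype and 0.0951 to 0.450 in E47KO livers. After Cort these values were 0.320 to 0.630 and 0.222 to 0.311. All 8 hepatocyte markers were detected in every liver group, with a summed level of 69320 to 146255 CPM. The summed level of 6 mesothelial markers was 1.72 to 19.2 CPM and that of 6 muscle markers 0.520 to 310.5.

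One set of untreated livers stood apart in the members. Wildtype replicate 5 and E47KO replicates 5 and 6 have files with numbers close to each other, and the groups were formed by these numbers after the levels had been seen. In the wider ranges of file number, used below for Cort and Dex livers, these 3 livers were not set apart. There they shared a range with wildtype replicates 3 and 4 and E47KO replicates 2, 3 and 4. Wildtype replicate 5 and E47KO replicates 5 and 6 all had higher levels than the other 8 untreated livers of both genotypes for 8 of the 10 members. The exceptions were Saa4 and Crp, and the share over 11907 genes with a mean of at least 1 CPM was 4.16%. The counts of members and pathway genes called for a treatment are therefore given with and without these 3 livers, called the high livers from here on, and so are the values of members that turn on them. Since these livers were set apart by levels already seen, fits without them are a description and no test of a treatment. Leaving them out lowers the untreated level of these 8 members by choice.

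In those 3 livers Saa1, an apolipoprotein of the acute phase, was at 1428 to 2665 CPM, while the other 8 untreated livers lay between 22.2 and 530.4. For Saa2, its near copy, the ranges were 737 to 1674 and 7.16 to 238. For Saa3, made in macrophages and fat as well as liver, they were 25.3 to 51.4 and 2.66 to 8.84. The lowest high liver was 2.69, 3.10 and 2.87 times the highest of the others in these 3 genes. Lcn2, which binds bacterial iron carriers, was at 102 to 389 against 1.30 to 25.1 CPM. Orm2, a plasma carrier of drugs and lipids, was at 114 to 159.6 against 8.92 to 38.8. The ratio of medians was 39.3 for Saa1, 49.5 for Saa2, 26.6 for Lcn2 and 11.3 for Orm2. The abundant members differed less: Hp, the scavenger of free hemoglobin, was at 5874 to 7586 against 1629.5 to 3828 CPM, Orm1 at 1471 to 1842 against 566 to 973, and Apcs, a pentraxin that coats amyloid, at 145 to 257 against 58.3 to 92.7. Crp, the other pentraxin, overlapped with 411 to 500.1 against 294 to 484, and so did Saa4 with 626 to 1185 against 305 to 909.

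Other acute phase genes of the same livers were higher too. Of 21 further positive acute phase genes 9 had all 3 high livers above the other 8, namely Hpx, Itih3, Itih4, C3, Cfb, C4b, Cp, Lrg1 and Fgl1. Of 23 expressed genes of cytokine signaling 4 did, and of 10 negative acute phase genes none did and 1 had all 3 below. The shares over 11907 genes were 4.16% with all 3 above and 2.23% with all 3 below. The summed level of 10 neutrophil markers was 1.57 to 2.16 CPM in the high livers and 0.964 to 4.43 in the others, so it overlapped. That of 10 macrophage markers was 217 to 376 against 136 to 277, and that of the hepatocyte markers 69320 to 83644 against 74603 to 121874. The hepatocyte list shares Alb, Ttr, Apoa1 and Cps1 with the negative acute phase list, so its sum is not a measure of cell share alone. The part of these cell types in the difference was not tested.

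**Figure D1:**
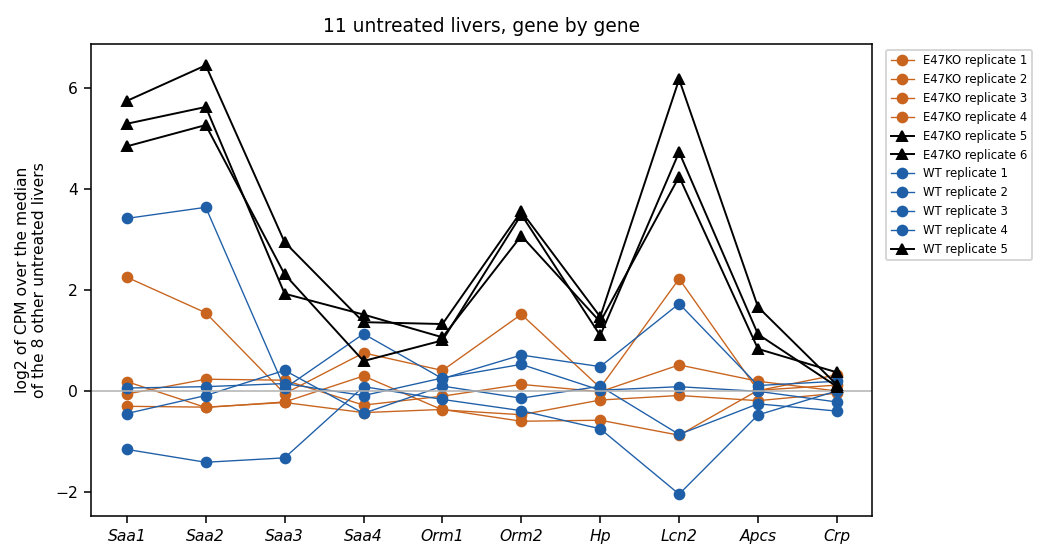
The 10 members (horizontal axis) in the 11 untreated livers, each line 1 liver, as log2 of its TMM-scaled CPM over the median of the 8 lower livers (vertical axis). Black triangles are wildtype replicate 5 and E47KO replicates 5 and 6, and circles are the other wildtype (blue) and E47KO (orange) livers. The triangles lie above all others for 8 members and among them for Saa4 and Crp.

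Across all 30 livers Hp had the highest level per length, with a median of 3808 CPM per kb of principal transcript. Orm1 followed with 876, Crp with 301, Saa4 with 234 and Saa1 with 118. Apcs (84.1), Lcn2 (39.7), Saa2 (28.7), Orm2 (21.2) and Saa3 (12.6) were lowest. Neighbors in the lower part of this order overlapped across livers, since Saa2 spanned 4.42 to 1674 CPM and Lcn2 1.30 to 389. The standard deviation of log2 level within groups was 2.14 for Saa2, 1.93 for Saa1 and 1.81 for Lcn2, which ranked 7, 13 and 17 among 11907 genes, whose median was 0.225. Orm2 (1.28) and Saa3 (1.04) followed, Saa4, Apcs, Hp and Orm1 had values from 0.61 to 0.45, and Crp had 0.25. Without the high livers the values were 1.41 for Saa2, 1.30 for Saa1 and 1.02 for Lcn2, and 0.26 for Crp.

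**Figure D2:**
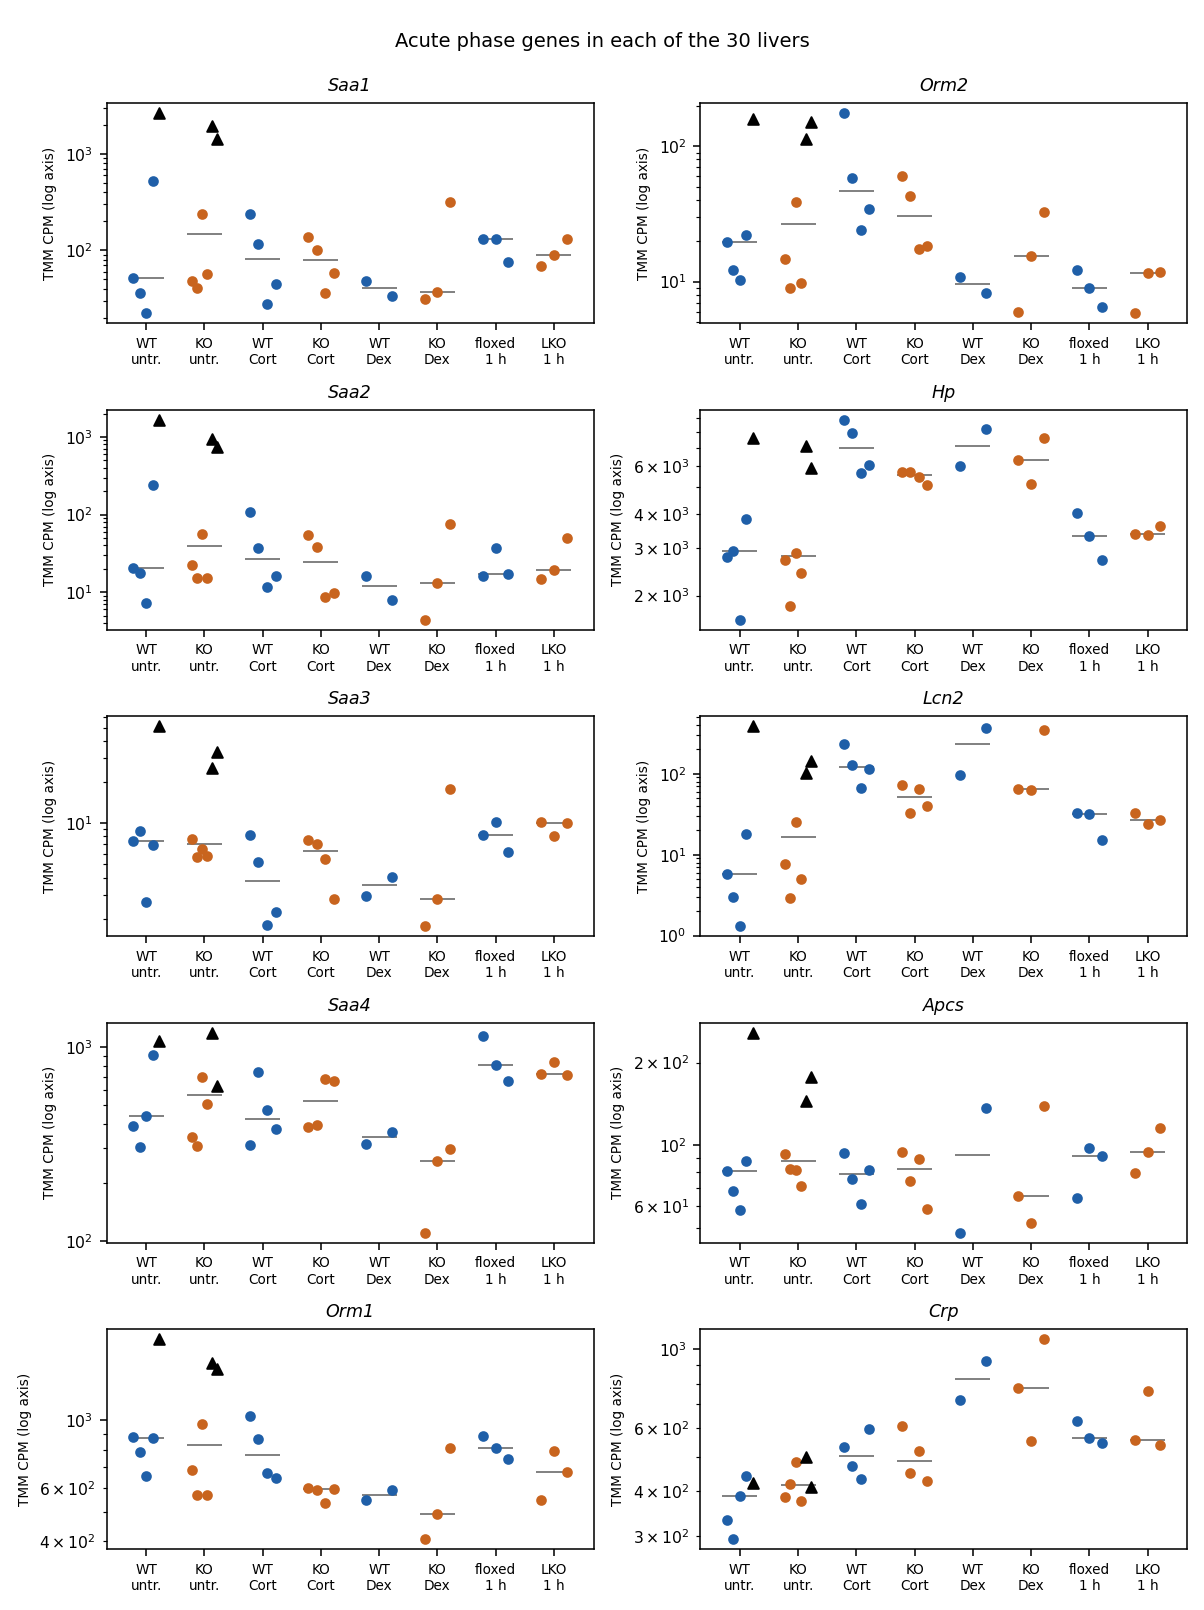
Level of each member in each of the 30 livers by group (vertical log axis, TMM-scaled CPM), each point 1 liver, blue for control and orange for E47-deficient (KO, or LKO for Albcre), black triangles for the high livers, and each line the group median. Lcn2 lies between 33.2 and 367 CPM in the 13 livers after 3 weeks of Dex or Cort. In untreated livers it spans 1.30 to 25.1 in the 8 lower ones and 102 to 389 in the 3 high ones. Crp stays between 294 and 1065 everywhere.

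No member passed the test between E47-deficient and control livers. In each of the 4 liver comparisons 0 of 10 members passed in edgeR. After Dex 0.00752% of all genes passed, after Cort 0.0274%, in untreated livers 0.0288% (0.0144% without the high livers), and 1 h after Dex 0%. At an unadjusted p under 0.05 the counts of members were 0 after Dex, 3 after Cort, 0 untreated and 0 after 1 h. DESeq2 called 1 member, after Cort, and 0 in the other 3.

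After Cort, Lcn2 was at 233, 129, 66.2 and 114 CPM in wildtype replicates 1 to 4 and at 72.1, 33.2, 65.3 and 39.5 in E47KO. The groups overlapped, with 3 of 4 wildtype livers above every E47KO liver. The difference was -1.39 log2 (SE 0.39), with an unadjusted p of 0.00645 and an adjusted p of 0.291 in edgeR, and an adjusted p of 0.0144 in DESeq2. Orm1 was at 1032, 869, 669 and 647 CPM in wildtype and 600.1, 589.6, 533 and 595 in E47KO livers after Cort. Its groups did not overlap, at -0.49 log2 (SE 0.15, unadjusted p = 0.0115, adjusted p = 0.349). Hp was at 8875, 7904, 5634 and 6016 CPM in wildtype and 5715, 5711, 5436 and 5095 in E47KO livers, which overlapped in 1 wildtype liver, with -0.39 log2 (SE 0.16, adjusted p = 0.463). Orm2 was at 176, 58.6, 23.9 and 34.5 CPM in wildtype and 60.2, 43.0, 17.5 and 18.4 in E47KO livers, with -1.10 log2 (SE 0.66, adjusted p = 0.65). The other 6 members had differences between -0.67 (Saa2, SE 0.81) and 0.36 (Saa3, SE 0.50).

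The Cort libraries fell into a pair of ranges of file number, and wildtype and E47KO livers were in both. Saa2 and Saa3, 2 of the 10 members, did not overlap between these ranges, against 15.3% of all genes. Saa2 was at 38.7 to 109 CPM in the 3 livers of one and 8.72 to 37.4 in the 5 of the other, and Saa3 at 7.09 to 8.24 and 1.81 to 5.44. Lcn2 overlapped, with 33.2 to 233 and 39.5 to 129.

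After Dex, Saa1 was at 47.9 and 33.1 CPM in wildtype and 31.2, 37.0 and 315 in E47KO livers, and replicate 3 of E47KO alone was high. The same liver had the highest Saa2 (76.1 CPM, against 4.42 to 16.4 in the other 4), Saa3 (17.9 against 1.76 to 4.07) and Orm2 (32.7 against 5.99 to 15.4) of the 5. Fitted differences were 1.64 (SE 1.02) for Saa1, 1.34 (SE 1.08) for Saa2, 1.08 (SE 0.96) for Saa3 and 0.90 (SE 0.62) for Orm2, all with adjusted p = 0.999. Without E47KO replicate 3 the differences of Saa1, Saa2 and Saa3 were -0.24, -0.46 and -0.60. Saa4 was at 316 and 366 CPM in wildtype and 110.1, 257 and 298 in E47KO livers. It did not overlap between genotypes, with -0.62 log2 (SE 0.38, adjusted p = 0.999). Lcn2 was at 97.3 and 367 CPM in wildtype and 65.2, 62.9 and 353 in E47KO livers, with 1 high liver in each genotype.

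These 2 livers with high Lcn2, wildtype replicate 2 and E47KO replicate 3, shared a range of file numbers. Between the Dex livers of that range and the other 3, Saa3, Hp, Orm1, Lcn2, Apcs and Crp did not overlap, which is 6 of 10 members against 40.1% of all genes. Apcs was at 136 and 139 CPM in the pair and 48.0 to 65.4 in the other 3, Hp at 7560.0 and 8220.1 against 5149 to 6278, and Crp at 926 and 1065 against 553.8 to 777. These ranges hold both genotypes, and what they stand for is not given in the sources used here.

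In untreated livers the genotypes differed by -0.08 log2 in Saa1 (SE 1.32), -0.81 in Lcn2 (SE 1.37), 0.02 in Hp (SE 0.42) and 0.19 in Crp (SE 0.13), with adjusted p of 0.965 or more for every member. The standard errors of Saa1, Saa2 and Lcn2 exceeded 1 log2 unit, so a genotype difference of that size in these 3 would lie within the error. For 1 h after Dex the range of the 10 differences was narrower, from -0.27 (Orm1, SE 0.14) to 0.27 (Saa2, SE 0.48), each with adjusted p = 1. Saa1 was at 132, 131 and 75.4 CPM in floxed controls and 67.9, 88.6 and 130.0 in Albcre livers, and Hp was at 2697 to 4009 and 3326 to 3590.3. Both overlapped.

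**Figure D3:**
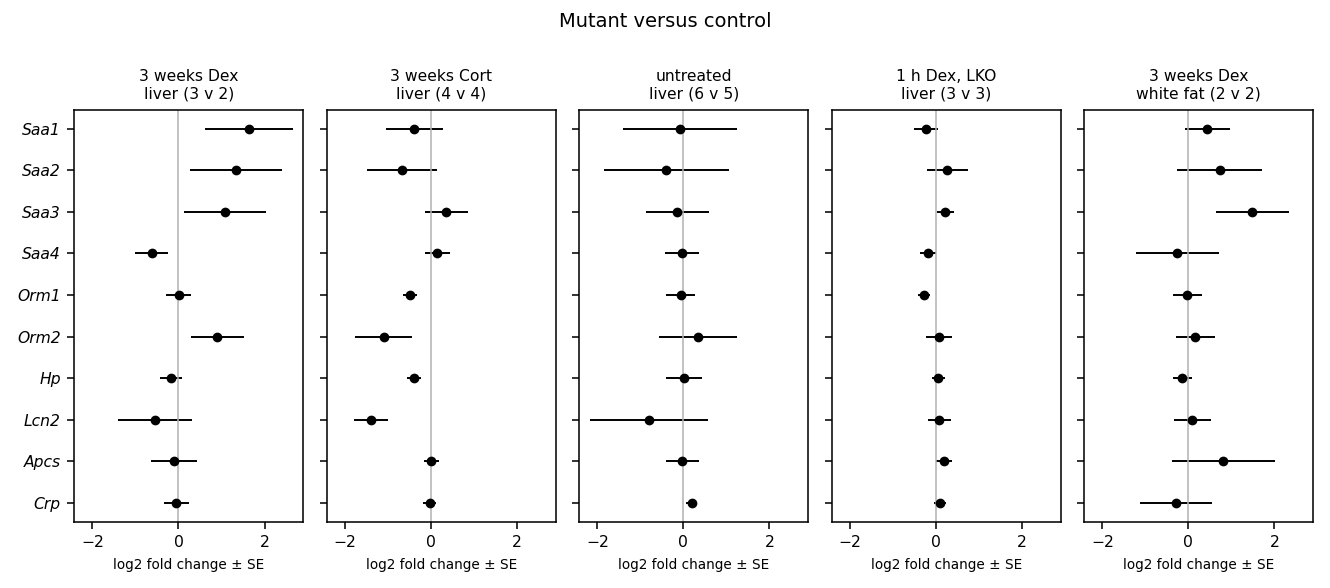
Difference between E47-deficient and control samples for each member (horizontal axis, log2 fold change from edgeR, with bars of 1 SE) in the 4 liver comparisons, where LKO marks the Albcre livers, and in white fat. None of the plotted differences passed the test, and the smallest unadjusted p was that of Lcn2 after Cort.

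Treated and untreated livers came from separate experiments, which also differed in depth. The 3-week treatments differed as well in library strand type and in the glucose tolerance test, with its overnight fast, before death. Treatment and experiment cannot be told apart in what follows. In bulk liver, fewer cells of a type and less RNA per cell cannot be told apart either. The 5 comparisons with untreated livers share those untreated livers within a genotype.

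Markers of several cell types moved with the treatments. The summed level of the 8 hepatocyte markers, all detected, was 69320 to 104054 CPM in untreated wildtype livers, and higher without overlap after 3 weeks of Dex (118588 to 120642) and after 1 h (110491 to 122654). That of 6 adipocyte markers was 53.7 to 100.4 CPM in wildtype Dex livers against 11.7 to 20.9 untreated, with no marker at 0 in a whole group, and that of 10 neutrophil markers was 3.35 to 4.44, with Elane at 0, against 0.964 to 1.62. In E47KO livers these lists overlapped between Dex and untreated, with adipocyte markers at 11.47 to 93.2 and 8.43 to 35.7 CPM. The 10 macrophage markers, all detected, were lower after Cort, at 58.1 to 122 CPM against 149 to 259 in E47KO livers without overlap, and at 93.3 to 144 against 136 to 376 in wildtype livers. The 5 B cell markers were at 0.0598 to 0.244 CPM in wildtype Dex livers and at 0.320 to 0.630 in wildtype Cort livers, against 1.93 to 4.03 untreated. The hepatocyte list holds genes of the negative acute phase list and Tat, which the study names as a known target of the glucocorticoid receptor. Its sum can therefore move without a change in cell share. The part of these cell types in the differences below was not tested.

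Crp was higher than in untreated livers after Dex in both genotypes. It was at 333, 294, 388, 443 and 421 CPM in untreated wildtype livers, at 722 and 926 after 3 weeks of Dex and at 627, 564 and 547 in floxed controls 1 h after the injection. Neither treated group overlapped with the untreated livers. The differences were 1.13 log2 (SE 0.19, adjusted p = 7.51e-05) for 3 weeks and 0.63 (SE 0.17, adjusted p = 0.0126) for 1 h. E47KO livers were at 375 to 500.1 CPM untreated and at 777, 553.8 and 1065 after 3 weeks of Dex, with 0.89 log2 (SE 0.17, adjusted p = 0.00015). After Cort wildtype Crp was at 532, 469.6, 433 and 596 CPM, which overlapped with untreated, with 0.43 log2 (SE 0.16, adjusted p = 0.0407), and in E47KO livers the difference was 0.22 (SE 0.16, adjusted p = 0.265). When the high livers were left out, the 4 differences that passed were 1.19, 0.64, 0.96 and 0.47, and all 4 passed. The Cort value lost its call when any of 5 single livers was left out, and the 1 h value without floxed control replicate 1 (0.56, adjusted p = 0.0571).

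Of the 10 members, the count that passed was 2 for Cort in wildtype livers (Hp and Crp higher), against 33.2% of all genes, and 4 without the high livers (31.3%). In E47KO livers after Cort it was 1 (Orm1 lower, against 38.9%) and 2 without (34.2%). After 3 weeks of Dex it was 1 in wildtype (31.9%) and 3 without (32.1%), and 2 in E47KO (37.8%) and 4 without (35.7%). For 1 h of Dex it was 1 with and without (20.4% and 20.9%). All 3 Cort calls were lost when only the 2 groups compared were fitted (adjusted p = 0.0895 for Hp, 0.0586 for Crp and 0.0739 for Orm1). The Dex calls were not refitted in this way. With a background of this size these counts are not a result about the members. The median of the members' differences moved with the 3 livers, from -0.36 to 0.03 for Cort and -0.65 to 0.19 for 1 h of Dex in wildtype or floxed livers, while that of all genes stayed between -0.07 and 0.01 in those 4 fits. For 3 weeks of Dex in wildtype livers it moved from -0.85 to -0.52 and stayed below 0. In E47KO livers it moved from -0.57 to 0.10 for Cort and from -0.84 to 0.22 for Dex.

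Lcn2 passed after Cort and after Dex only without the high livers. Those livers were set apart by high levels of members such as Lcn2, so the adjusted p without them do not test a treatment. Untreated wildtype livers were at 5.70, 2.96, 1.30, 17.8 and 389 CPM. After Cort wildtype livers were at 66.2 to 233 CPM and after Dex at 97.3 and 367. Every treated liver was above 4 of the 5 untreated ones and below the fifth. The differences were 0.70 log2 (SE 1.11, adjusted p = 0.663) for Cort and 1.48 (SE 1.32, adjusted p = 0.414) for Dex. Without them they were 4.27 (adjusted p = 0.000296) and 5.07 (adjusted p = 9.35e-05). E47KO livers were at 2.93 to 25.1 CPM in 4 untreated livers and 102 and 143 in the other 2, at 33.2 to 72.1 after Cort and at 62.9 to 353 after Dex. There the differences without the high livers were 2.34 (adjusted p = 0.0145) for Cort and 3.98 (adjusted p = 0.00041) for Dex, and with them 0.14 and 1.75, which did not pass.

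Hp was also higher, in part only without the high livers, where the same limit holds, since Hp was among the members that set them apart. Untreated wildtype livers were at 2769, 2923, 1629.5, 3828 and 7586 CPM, Cort livers at 5634 to 8875 and Dex livers at 5979 and 8220.1. The Cort difference was 0.92 log2 (SE 0.34, adjusted p = 0.0388) and the Dex difference 0.92 (SE 0.41, adjusted p = 0.0877). Without them they were 1.34 (adjusted p = 7.89e-05) and 1.37 (adjusted p = 0.0002), and in E47KO livers 1.14 (adjusted p = 0.000309) and 1.38 (adjusted p = 5.72e-05), where the values with all livers, 0.53 and 0.74, did not pass. The wildtype Cort call with all livers was lost without any of 6 single livers, 2 treated and 4 untreated.

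The acute serum amyloid genes had fitted differences below 0 with all livers. Saa1 was at -2.62 log2 (SE 1.25, adjusted p = 0.107) for wildtype Cort, -4.03 (SE 1.83, adjusted p = 0.0936) for wildtype Dex, -2.91 (SE 1.24, adjusted p = 0.0653) for E47KO Cort, -2.29 (SE 1.36, adjusted p = 0.19) for E47KO Dex and -2.55 (SE 1.40, adjusted p = 0.204) for 1 h of Dex. None of these passed in edgeR, while DESeq2 called Saa1 for wildtype Cort (adjusted p = 0.0471), wildtype Dex (0.0137) and E47KO Cort (0.0173), and Saa2 in all 5 comparisons. Saa3 for wildtype Cort was at -1.81 (adjusted p = 0.0604), was called by DESeq2 (adjusted p = 0.0393), and passed in edgeR without wildtype Cort replicate 1 (adjusted p = 0.0419) or untreated replicate 3 (0.0309) or 4 (0.047). In E47KO livers Saa3 passed for Dex without Dex replicate 3 (-2.60, adjusted p = 0.0398). All treated livers lay below the high livers in Saa1. Saa1 after Cort was at 241, 117, 28.0 and 44.6 CPM in wildtype livers, and untreated replicates 1 to 3 were at 51.6, 36.3 and 22.2 beside 530.4 and 2665 in replicates 4 and 5. E47KO untreated livers were at 47.5, 40.1, 236 and 56.3 in replicates 1 to 4 and 1947 and 1428 in replicates 5 and 6, and Cort livers at 138, 100.3, 36.3 and 58.6. Leaving out the high livers made the Saa1 differences smaller, at -0.57 for wildtype Cort, -1.95 for wildtype Dex, -0.20 for E47KO Cort, 0.44 for E47KO Dex and -0.52 for 1 h of Dex. In the same order they became -0.70, -2.51, 0.017, 0.21 and -1.62 for Saa2 and -0.56, -0.87, -0.18, 0.23 and 0.31 for Saa3. None of these 15 passed, and the smallest adjusted p was 0.152 (Saa2, wildtype Dex).

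Saa4 fell in E47KO livers after Dex. It was at 110.1, 257 and 298 CPM there and at 308 to 1185 in the 6 untreated E47KO livers, without overlap, with -1.46 log2 (SE 0.43, adjusted p = 0.00856) and -1.05 (adjusted p = 0.0339) without the high livers. Without E47KO Dex replicate 1 the value was -1.14 (adjusted p = 0.0756). In wildtype livers Saa4 was at 316 and 366 CPM after Dex and 305 to 1068 untreated, with -0.87 log2 (SE 0.49, adjusted p = 0.186), and -0.56 (adjusted p = 0.333) without the high livers. The difference between the genotypes in this response was -0.60 (SE 0.62, adjusted p = 1).

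Orm1 in E47KO livers was at 533 to 600.1 CPM after Cort and 566 to 1535 untreated, with -0.74 log2 (SE 0.29, adjusted p = 0.042). The call was lost without any of 7 single livers, and without the high livers the value was -0.29 (adjusted p = 0.273). Orm2 in wildtype livers was at 23.9 to 176 CPM after Cort and at 10.3 to 22.2 in untreated replicates 1 to 4, with 159.6 in replicate 5. Its difference was 0.71 (SE 0.81, adjusted p = 0.527), and 2.18 (adjusted p = 0.00785) without the high livers, which Orm2 itself helped to set apart. After Dex Orm2 was at 10.8 and 8.26 CPM in wildtype livers, so that Cort and Dex livers did not overlap, while in E47KO livers they did, at 17.5 to 60.2 and 5.99 to 32.7. That contrast between experiments was not tested. Apcs passed in no treatment comparison with all livers, with differences between -0.50 (SE 0.37, wildtype Cort) and -0.26 (SE 0.47, wildtype Dex).

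**Figure D4:**
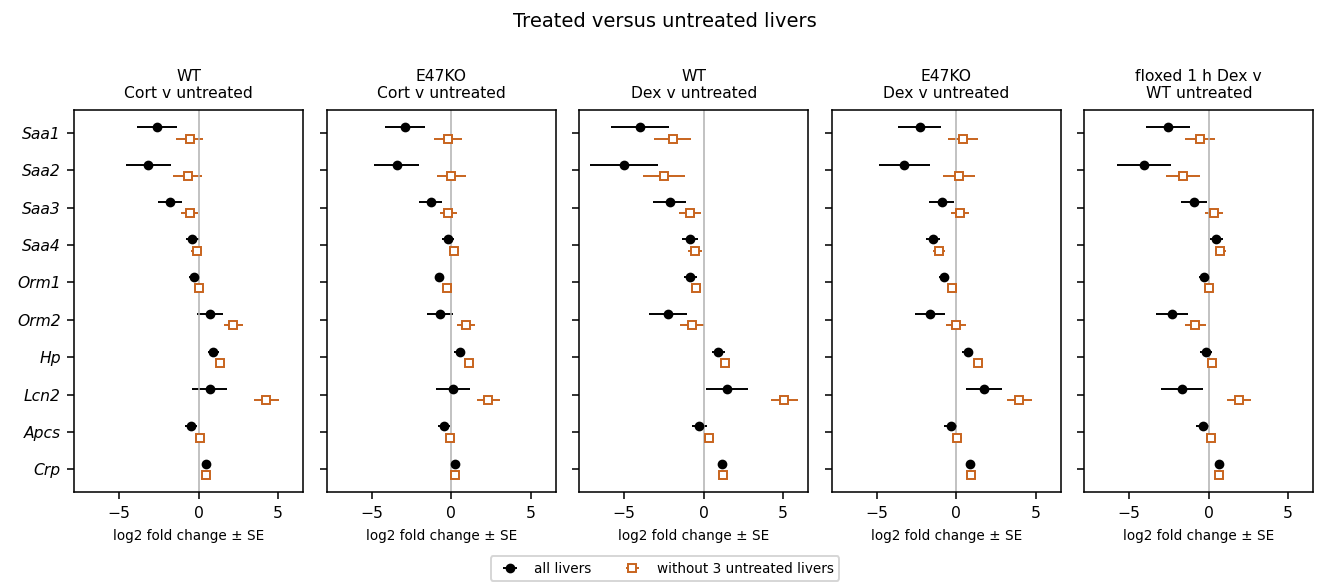
Difference between treated and untreated livers for each member (horizontal axis, log2 fold change from edgeR, with bars of 1 SE) in the 5 treatment comparisons, with all untreated livers and without the 3 high ones. Crp lies above 0 in all 5 under both, while Lcn2 moves from 0.70 to 4.27 in wildtype Cort livers.

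No member passed the test of a genotype difference in the response. For Cort 0 of 10 members passed in edgeR, with 0 at an unadjusted p under 0.05 and 0 in DESeq2, against 0.00616% of all genes (0.00631% without the high livers). For Dex it was again 0 of 10, with 0 at an unadjusted p under 0.05 and 0 in DESeq2, against 0.00616% (0% without). The differences of the Lcn2 effects were -0.56 (SE 1.56) for Cort and 0.27 (SE 1.83) for Dex, and those of Crp -0.21 (SE 0.23) and -0.24 (SE 0.27).

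After 3 weeks of Dex the members were also measured in white fat and muscle, here on 1 scale with the Dex livers. Hp in fat lay within the range of the livers, with 8387 and 8324 CPM in wildtype fat, 7417 and 7892 in E47KO fat and 6013 to 9511 in the 5 livers. The difference was 0.04 log2 (SE 0.35, adjusted p = 0.937). Orm1 was at 315 to 627 CPM in fat and 478 to 935 in liver (-0.50, SE 0.38, adjusted p = 0.251), and Saa3 at 1.69 to 22.4 and 2.07 to 20.7 (0.61, SE 0.79, adjusted p = 0.498). The 7 other members passed and were lower in fat. Of all 18113 genes tested 75.4% passed in either direction, with 6116 genes lower in fat. Crp had at most 41 counts in a fat library, Apcs at most 18 and Saa4 at most 42, while Saa1 had 52 to 163 and Saa2 22 to 209. Lcn2 was at 27.5 to 61.1 CPM in fat and 73.5 to 425 in liver (-2.28, SE 0.58, adjusted p = 0.00327), and Orm2 at 3.56 to 9.90 and 7.04 to 37.7 (-1.09, SE 0.42, adjusted p = 0.03). The Orm2 call was lost without any of 5 single samples.

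In muscle 9 of 10 members passed and were lower than in liver. Of all 18113 genes tested 76.4% passed in either direction, with 6524 genes lower in muscle. Lcn2 did not pass, at 127 and 85.6 CPM in wildtype muscle, 88.2, 57.2 and 118 in E47KO muscle and 73.5 to 425 in liver (-1.21, SE 0.53, adjusted p = 0.0523). It passed without a filter on low counts (adjusted p = 0.0125) and without any of 3 single livers (adjusted p = 0.0222 to 0.028). Hp was at 10.4 to 68.1 CPM in muscle (-7.91, SE 0.47, adjusted p = 8.27e-09) and Orm1 at 1.45 to 8.18 (-7.07, SE 0.49, adjusted p = 3.93e-08). Saa3 was at 0.141 to 2.80 (-2.55, SE 0.86, adjusted p = 0.0167), which overlapped with liver, and did not pass without E47KO liver replicate 3 (adjusted p = 0.058) or wildtype muscle replicate 1 (0.0698). Saa1, Saa2, Orm2 and Apcs had at most 6 counts in any muscle library. Crp had 47 and Saa4 12 counts in wildtype muscle replicate 2, where the summed hepatocyte markers were 228 CPM against 2.396 to 14.1 in the other 4, and at most 5 and 2 elsewhere. The median difference of the members was -3.06 in fat and -8.50 in muscle, beside 0.19 and 0.11 over all genes.

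Between genotypes 0 of 10 members passed in white fat and 0 of 4 tested in muscle in edgeR, where 0% and 0.0134% of all genes did. DESeq2 called 0 in both tissues. At an unadjusted p under 0.05 were 699 of 16289 genes in white fat and 590 of 14962 in muscle, and 0 and 1 members. The 1 was Hp in muscle, at 10.4 and 32.9 CPM in wildtype and 32.8, 45.4 and 68.1 in E47KO samples, with 1.20 log2 (SE 0.49, unadjusted p = 0.0474, adjusted p = 1). The groups overlapped by 1 sample. The summed level of 6 adipocyte markers was 192 to 307 CPM in wildtype and 613 to 762 in E47KO muscle, and its part in the Hp difference was not tested.

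**Figure D5:**
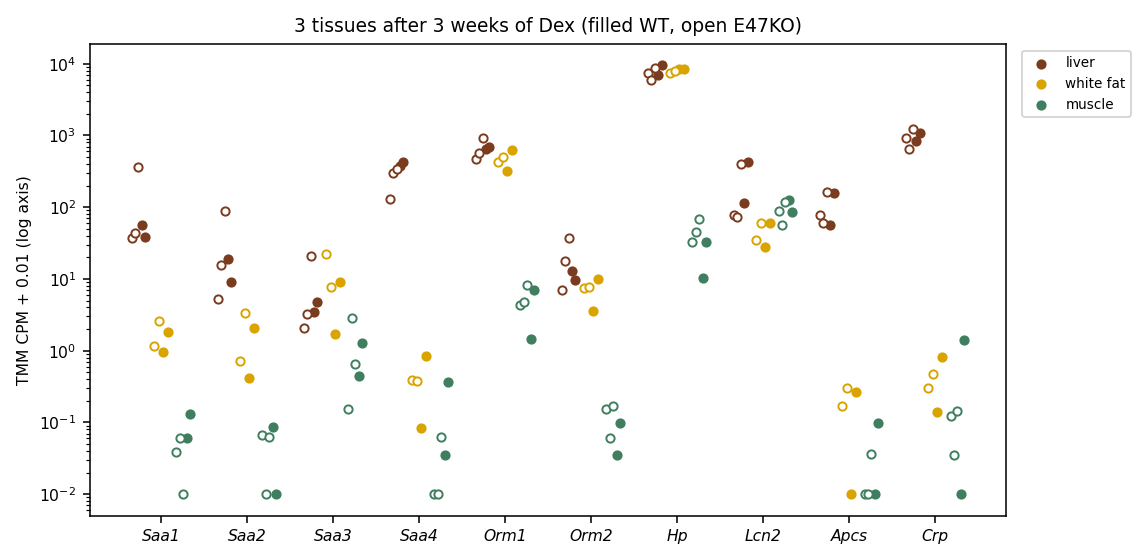
Level of each member after 3 weeks of Dex in liver, white fat and muscle (vertical log axis, TMM-scaled CPM with 0.01 added), each point 1 sample, filled for wildtype and open for E47KO. Hp reaches the liver's range in white fat and Lcn2 in muscle, while Crp, Apcs and Saa4 stay below 2 CPM outside liver.

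The rest of the pathway was read from lists of cytokine signaling genes, further positive acute phase genes and negative acute phase genes. Most of the negative list encodes plasma proteins that fall in inflammation, but Cps1 does not encode a plasma protein. Cebpd is in both the cytokine signaling and the positive list, so it is counted in each. In the 4 liver genotype comparisons 0 genes of the 3 lists passed in edgeR, and at an unadjusted p under 0.05 there were at most 4 per list. That largest count was 4 of 21 positive acute phase genes after Cort, beside 1435 of 14588 genes at the same threshold. For wildtype Cort 4 of 25 tested cytokine signaling genes were higher and 1 lower, 7 of 21 positive acute phase genes were higher and 0 lower, and of 10 negative ones 1 was higher and 2 lower. Without the high livers 6 cytokine signaling genes were higher, with the other counts the same. The share over all genes was 33.2%. The receptor chain Lifr was lower (-1.90 log2, adjusted p = 8.79e-07), as was Fetub (-0.78, adjusted p = 0.000625). The lipopolysaccharide-binding protein Lbp (1.66, adjusted p = 0.000104) and the metallothionein Mt1 (3.07, adjusted p = 0.000753) were higher.

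In E47KO livers after Cort 8 of 25 cytokine signaling genes were higher and 2 lower, and 3 of 21 positive and 0 of 10 negative acute phase genes passed, beside 38.9% of all genes. The NF-kB subunit Rela (0.49, adjusted p = 0.000214) and Lbp (1.09, adjusted p = 0.00255) were higher and Lifr lower (-1.26, adjusted p = 4.49e-05). Tnf passed with 7.11 log2 (adjusted p = 0.00033), but ranged from 0.0208 to 28.4 CPM over the 4 livers, against 0.0337 to 0.142 untreated. With the high livers left out, 5 positive acute phase genes were higher in E47KO livers, and 8 cytokine signaling genes were higher and 1 lower.

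After 3 weeks of Dex 6 of 25 cytokine signaling genes were higher in each genotype, with 2 lower in wildtype and 1 lower in E47KO livers, beside 31.9% and 37.8% of all genes. These counts without the high livers were 7 and 2 in wildtype and 6 and 2 in E47KO livers. The higher genes included Cebpb, at 72.2 to 94.6 CPM against 8.10 to 26.6 untreated in wildtype (2.404 log2, adjusted p = 3.72e-06) and 1.97 (adjusted p = 6.33e-06) in E47KO livers, and Cebpd (2.78, adjusted p = 8.32e-06, and 2.18, adjusted p = 2.33e-05), the C/EBP factors of the acute phase. Rela was higher in E47KO (0.81, adjusted p = 8.94e-07) and Lifr lower in both (-1.76, adjusted p = 3.97e-05, and -1.44, adjusted p = 2.9e-05). Serpina6, which makes the corticosteroid-binding globulin of plasma, fell by 4.44 (adjusted p = 3.34e-05) and by 3.36 (adjusted p = 2.96e-05). Of the positive acute phase genes 6 were higher and 2 lower in wildtype, among them Mt1 (4.52, adjusted p = 3.87e-05), and 5 and 3 in E47KO livers. Without the high livers these were 7 and 0, and 9 and 1. Negative acute phase genes went both ways, with 2 higher and 2 lower in wildtype (1 and 3 without the high livers) and 3 and 1 in E47KO livers (3 and 1). The pathway genes named for a treatment here also passed, in the same direction, without the high livers.

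At 1 h after Dex 5 of 21 positive acute phase genes were higher and 0 lower, 4 of 25 cytokine signaling genes were higher and 3 lower, and 1 of 10 negative ones was lower, beside 20.4% of all genes. Without the high livers 6 positive acute phase genes and 2 cytokine signaling genes were higher, with the other counts the same. The chains of fibrinogen were among them, with Fga at 6578 to 8347 CPM against 2238 to 5313 in untreated wildtype livers (1.11 log2, adjusted p = 0.0016), Fgb at 0.73 (adjusted p = 0.00815) and Fgg at 0.77 (adjusted p = 0.00982). Mt1 (2.54, adjusted p = 0.0077) and the kinase Jak1 (0.36, adjusted p = 0.0113) were also higher, and these 5 genes passed without the high livers too. Outside liver, Osmr, a receptor chain for oncostatin M, was higher in white fat than in liver (3.53, adjusted p = 2.31e-08), while Il1rap, Fetub and Cp were lower there and in muscle, at -3.96 to -9.90 log2.

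Within groups the members varied together, which is given as a description over 30 livers that share their library and group. After the group means were taken out, the genes most like Saa1 by Pearson's r of log2 CPM among 11907 genes were Saa2 (0.98), Fgl1 (0.96) and Itih4 (0.93). Those most like Orm2 were Orm1 (0.95), Saa2 (0.93) and Saa1 (0.92), and those most like Lcn2 were Hp (0.93), Fgl1 (0.93) and Saa1 (0.92). Over the 27 livers without the high ones these 9 values lay between 0.81 and 0.95. Saa1 and Saa2, and Orm1 and Orm2, share sequence, so reads could be split between them. Crp had a median r of 0.40 with the other 9 members and Saa4 0.59, against 0.76 to 0.91 for the other 8. Over the 27 livers without the high ones the medians were 0.40 for Crp, 0.32 for Saa4, 0.48 for Apcs and 0.65 to 0.74 for the other 7.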

How the data were processed

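RNA of 30 livers, 4 white fat and 5 muscle samples was rRNA-depleted and sequenced, and per the labels and methods the authors aligned reads with STAR (2.4.2a) to mm10 and made the deposited counts of reads per gene for each sample, where HTSeq is also named. Extraction is given as Qiazol after 3 weeks of treatment and RNeasy kits 1 h after Dex in the labels, and as RNeasy kits for liver in the methods. The unstranded column was used throughout, since the Dex files hold no other. In the Cort files, labelled as stranded, 50.1% of gene counts fell on the larger strand column, against 96.9 to 97.7% in untreated and 1 h livers. Entries that name no gene, 20.8 to 36.8% of a file, were left out of library sizes and tests. The 6 tables of the authors' own DESeq2 comparisons (log2 fold changes and p-values) were not used, and 0 columns belonged to other samples.

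Counts were scaled by TMM and tested with edgeR (4.0.16, R 4.3.3) by two-sided quasi-likelihood F tests after filterByExpr, with Benjamini-Hochberg adjustment over all genes tested. Genotypes were compared within each experiment, treatments and genotype differences in response in 1 fit of all 30 livers by group, and tissues in 1 fit of the 14 Dex samples, where liver and muscle of 1 mouse were treated as independent. CPM have no depth error attached, and in rare members counts set the precision. Spread and likeness used log2 of CPM plus 0.5 in genes with a mean of at least 1 CPM. No 2 replicates held the same library, since chi-square over its degrees of freedom ran from 15.9 to 250 in the 53 pairs. Alternatives were DESeq2 (1.42.0), RLE size factors, no filter, the strand column, a replicate block, number ranges as covariates, and leaving out each sample. Fitting only the groups compared was a further one, run for the Cort contrasts of the 30-liver fit and not for Dex. Simulated counts were run through the genotype fits after Cort and in untreated livers, and through the wildtype Cort and Dex contrasts with untreated livers. The outcome is not given here. The simulation held no file-number groups and did not cover the other fits.

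The members and the pathway and marker lists were chosen with earlier results of these data known. All 10 members are named in every comparison. Of other pathway genes, those called were named, at most the 5 with the smallest adjusted p. A result that this rule would name is not reported here. The marker lists covered hepatocytes, neutrophils, macrophages, adipocytes, mesothelium, muscle fibers and B cells.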

Additional observations from a re-analysis of the deposited data

Results flagged for a closer look

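In 40 checks of a member within a liver group of 4 to 10 samples, 8 values lay apart from the rest of their group by Dixon's criterion. The criterion was applied to CPM and not to log2 levels. Its limit is meant for about 1 of 20 groups of normally distributed values, which CPM with a wide spread need not be. Since members vary together within groups, flags in 1 library are not separate findings. Of these 7 were in 1 library, untreated wildtype replicate 5. There Saa1 was at 2665 CPM with the next liver at 530.4, Saa2 at 1674 with the next at 238, and Saa3 at 51.4 with the next at 8.84. Orm1 was at 1842 CPM with the next at 878, Orm2 at 159.6 with the next at 22.2, Lcn2 at 389 with the next at 17.8, and Apcs at 257 with the next at 87.4. The other value was Orm1 in E47KO Cort replicate 3, at 533 CPM below 589.6 to 600.1 in the other 3 livers. Among the untreated E47KO livers replicates 5 and 6 were both high, so neither lay apart alone.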

How the results depend on the processing

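Of 2000 member values recomputed under other settings, 31 calls were lost and 43 gained, 188 values crossed 0, 46 of them with a size above the SE in either fit, and 0 while called in either fit. Counts of members that passed moved as follows. With DESeq2 they were 1 for the genotype difference after Cort, 5 and 3 for Cort in wildtype and E47KO livers, 3 and 4 for Dex and 2 for 1 h of Dex. With only the groups compared in the fit they were 0 for Cort in both genotypes. Without the 3 high untreated livers, an alternative chosen after seeing the data, they were 4 and 2 for Cort and 3 and 4 for Dex. Leaving out 1 sample at a time gave 0 to 4 and 0 to 3 for Cort, 1 to 3 and 1 to 4 for Dex and 0 to 1 for 1 h of Dex. The cause of these moves was not tested.

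Same-numbered samples did not deviate together in every pair (correlations from -0.54 to 0.83, and not every sample correlated best with its own number), so the numbers were not taken as pairs. With the replicate block, the Dex genotype differences became -0.22 in Saa1, -0.54 in Saa2, -0.62 in Saa3 and -0.33 in Orm1, and 0 members passed in any comparison fitted with it. Genes called between genotypes with the replicate block were 0 for Dex, 29 for Cort, 2 untreated and 1 in muscle, against 1, 4, 4 and 2 without. No paired analysis was possible for white fat because its groups share only 1 replicate number.

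Of the values that crossed 0, those with a size above the SE in either fit were, with the number range as a covariate, Apcs between genotypes after Dex (0.18), and with the file-number group as a covariate Hp in untreated livers (-0.19). Without the high livers, Apcs between untreated genotypes was 0.15. Apcs was 0.067 for Cort and 0.34 for Dex in wildtype livers, Saa2 0.017 and Orm2 0.93 for Cort in E47KO livers, and Saa1 0.44, Saa2 0.21, Saa3 0.23 and Orm2 0.0059 for Dex in E47KO livers. For 1 h of Dex, Saa3 was 0.31, Hp 0.22 and Lcn2 1.90. Leaving out 1 sample at a time turned the following by the same measure, given as lowest to highest log2 value. Differences between genotypes in Dex livers were Saa1 -0.24 to 2.10, Saa2 -0.46 to 1.97, Saa3 -0.60 to 1.55, Orm1 -0.33 to 0.19 and Apcs -0.67 to 0.83. Differences between genotypes in untreated livers were Saa1 -0.87 to 1.96, Saa2 -1.21 to 2.07, Saa3 -0.60 to 1.12, Lcn2 -1.55 to 2.77 and Apcs -0.23 to 0.55. Differences between Albcre and floxed livers were Saa2 -0.46 to 0.77, Saa4 -0.35 to 0.045 and Lcn2 -0.20 to 0.24. Differences between genotypes in white fat were Saa4 -1.14 to 2.28, Orm1 -0.44 to 0.53, Orm2 -0.40 to 1.06, Lcn2 -0.37 to 0.76 and Crp -1.08 to 1.51. Differences between genotypes in muscle were Saa3 -1.09 to 1.45. Values for Cort in wildtype livers were Orm1 -0.46 to 0.014 and Apcs -0.66 to 0.081. Values for 1 h of Dex were Saa3 -1.19 to 0.35 and Lcn2 -1.97 to 1.92. Values for the genotype difference in the Cort response were Apcs -0.53 to 0.24. Values for the genotype difference in the Dex response were Saa3 -0.48 to 1.70, Lcn2 -3.30 to 1.53 and Apcs -0.66 to 0.86.

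Genes called between genotypes were 23 with DESeq2, 62 without a filter on low counts and 0 with the number range for Dex. They were 266, 13 and 74 for Cort, 11 and 8 untreated with 2 under either file-number alternative, 6 and 1 for 1 h of Dex, 37 and 6 in white fat, and 92, 37 and 4 in muscle. Leaving out 1 sample gave 0 to 7, 1 to 6, 3 to 4, 0 to 1, 0 to 333 (white fat without E47KO replicate 3) and 1 to 8. DESeq2 called 10 and 2 genes in the tests of the genotype difference in response, where leaving out 1 sample gave 1 to 2 and 0 to 19. The Dex count in wildtype livers was 2757 without wildtype Dex replicate 2, and that for 1 h of Dex 2012 and 1959 without floxed controls 2 and 3. Total-count scaling moved 3 of 80 group levels by 1 SD or more. RLE size factors and the strand column changed no count of members.

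Groups of 2 to 6 samples, and a within-group SD above 1 log2 unit in 5 members, limit the precision of these comparisons. P-values set a difference against the spread between samples within groups, as estimated with help from all genes. The treatment contrasts share 1 estimate over all liver groups, and the tissue contrasts treat liver and muscle of 1 mouse as independent. Fits that leave 1 sample in a group assume that it varies like the other groups.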
